A study of Mus musculus with 6 samples.

Results

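The 426 genes described here are the long intergenic noncoding RNA (lincRNA) genes expressed in the testis of juvenile mice. They are the genes that the deposited table gives the biotype lincRNA and that held at least 200 raw counts when the 6 mice were summed, 426 of 1631 lincRNA genes and of 26743 genes in all. The members were thus selected on their measured counts over both genotypes, not on the difference between them. A gene could still reach the limit through the genotype in which it was higher. Whole testes were taken at postnatal day 21 from 3 wild type (WT) males and 3 Trf2-/- males, and total RNA depleted of ribosomal RNA was sequenced to ask which genes need Trf2. Trf2, listed in the table as Tbpl1, is a relative of the TATA-binding protein, and the Trf2-/- males carry the mutation in the whole animal, not in germ cells alone. Each mouse gave 1 library. A gene's level is given in CPM, its counts scaled to the library total after correction with the TMM method, and fold changes are log2 of Trf2-/- over WT, so negative values are lower in the mutant.

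LincRNAs are long transcripts that code for no protein and lie between protein-coding genes. Most are capped, spliced and polyadenylated by the same machinery as messenger RNAs, but they have fewer exons and lower levels, and for most of them no function is known. The testis transcribes more of them than most other tissues, above all in meiotic spermatocytes and in round spermatids, the haploid cells that follow meiosis.

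Library totals ranged from 21582123 to 29859347 counts in WT mice and from 15187062 to 24530489 in Trf2-/- mice, the lowest being Trf2-/- mouse 3. Tbpl1 itself held 8840, 7391 and 6119 counts in WT mice and 1586, 1500 and 882 in Trf2-/- mice, a log2 fold change of -2.27 ± 0.064 (SE; adjusted p = 1.18e-06, edgeR's quasi-likelihood test), lower in each library labelled Trf2-/-. Summed markers of round spermatids were 64.4 to 68.7 CPM in WT mice and 40.6, 43.7 and 29.0 CPM in Trf2-/- mice 1, 2 and 3, with 3 of 5 measured markers lower past the adjusted p. The 6 markers of pachytene spermatocytes summed to 5166 to 5592 CPM against 3711 to 4446 CPM, 5 of them lower and 1 higher. For elongating spermatids, the 4 markers in the table gave 4.08 to 5.09 CPM against 0.253 to 0.815 CPM. Only 2 of these 4 had enough counts to be tested, and both were lower. The paper dates the first round spermatids to just before postnatal day 21 and elongated spermatids to later. These low sums may thus not reflect that cell type. Markers of macrophages summed to 161 to 184 CPM against 184 to 362 CPM, 4 of 6 higher, those of Sertoli cells to 376 to 401 CPM against 433 to 481 CPM, 2 of 5 higher, and those of spermatogonia to 174 to 182 CPM against 190 to 245 CPM, 1 of 6 higher. Markers of Leydig cells gave 183 to 358 CPM against 190 to 327 CPM, 2 of 6 higher, and those of peritubular cells 269 to 345 CPM against 338 to 389 CPM, 1 of 4 higher. In whole testes, fewer cells of a type and less RNA in each cell cannot be told apart, and the part that these shifts play in the lincRNA differences was not tested.

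The label lincRNA was checked against an annotation of the same genome build (NCBIM37, mm9). GENCODE release M1 held 422 of the 426 genes at identical coordinates, 353 of them as lincRNA and 69 as processed transcripts. Current RefSeq entries could be matched for 294 genes, by Ensembl identifier or else by symbol. Of these 274 were long noncoding RNAs, 5 were pseudogenes, 11 were protein-coding and 4 were of other kinds. Tdrd5, a tudor domain protein of the piRNA pathway, Nlrc5, a transactivator of major histocompatibility class I genes, and Prss56, a serine protease, are among those 11, so that for them the table's biotype and RefSeq differ. Many of the genes are not intergenic in the strict sense: 153 overlapped a protein-coding gene on the opposite strand, 14 overlapped one on the same strand, and a further 112 started head to head with a protein-coding gene within 1 kb. Another 53 lay within 10 kb of a protein-coding gene in other arrangements, 90 lay further away, and for 4 no strand was found. The library kit keeps strand, but the strand setting of the counting is not given in the sources used here, so for the overlapping genes reads of the partner cannot be told apart with certainty.

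The lincRNA genes were expressed at a low level. Their median was 4.51 CPM, against 31.9 CPM for the 13492 protein-coding genes that also reached 200 counts and passed the filter on low counts. Per kilobase of annotated length the medians were 2.62 and 9.88 CPM, with median lengths of 2032 and 3388 bases and 3 against 9 exons in the longest transcript. Levels per kilobase ran from 0.0304 CPM for Gm4117 to 548 CPM for Malat1, the abundant noncoding RNA of nuclear speckles. Together the 426 genes took 0.876 to 0.953% of all counts in WT mice and 0.983 to 1.05% in Trf2-/- mice. Malat1 alone made up 32.9 to 34.5% of those lincRNA counts in WT mice and 43.7 to 46.5% in Trf2-/- mice. Without Malat1 the order of the genotypes turned round, with 0.576 to 0.625% of all counts in WT mice and 0.540 to 0.563% in Trf2-/- mice.

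In WT mice Malat1 stood at 3416, 2981 and 3113 CPM, and in Trf2-/- mice at 4765, 4175 and 4492 CPM. Every mutant mouse was above every WT mouse, and the log2 fold change was 0.50 ± 0.067 (SE; adjusted p = 0.00104, edgeR's quasi-likelihood test). The gene next in level per kilobase, 1700029M20Rik with 153 CPM per kilobase, went the other way, from 561, 527 and 499.7 CPM to 398, 410.0 and 376 CPM, a log2 fold change of -0.42 ± 0.056 (adjusted p = 0.000984). The ranking went on with Gm10505 (130.2 CPM per kilobase), 1700042G15Rik (122), 4932415G12Rik (95.1) and Tdrd5 (88.9), whose log2 fold changes of 0.08, -0.16, -0.22 and -0.12 were small, with 4932415G12Rik past the adjusted p at 0.0236 and the others not. Gm13942, 4930455B14Rik and 1700026J12Rik, at 52.6, 47.0 and 45.2 CPM per kilobase, were lower by more, with log2 fold changes of -0.83, -0.74 and -0.81 and adjusted p values of 0.00168, 0.0149 and 0.0110 (edgeR). The tenth of these genes, 4930463O16Rik, was higher in Trf2-/- mice, at 93.9, 82.0 and 112 CPM against 60.9, 46.5 and 52.0 CPM (log2 fold change 0.85 ± 0.13, adjusted p = 0.00147). Abundant lincRNAs thus moved in both directions, and none of these 10 changed by 2-fold. The adjusted p of 4932415G12Rik was 0.109 with scaling by library size alone and 0.0551, 0.0852 and 0.0818 without Trf2-/- mouse 2, WT mouse 1 or WT mouse 2, and that of 4930455B14Rik 0.0569 without WT mouse 1.

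The lincRNA genes as a group were shifted towards lower levels in Trf2-/- testes. With an adjusted p under 0.05 and at least a 2-fold change required for a call, 41 genes were called lower (9.62%) and 3 higher (0.704%). Of these, 13 called lower and all 3 called higher reached 200 counts only through the genotype in which they were higher. The shares called thus depend in part on how the members were chosen. Over all 16924 genes tested, 4.3% were called lower and 0.609% higher. On the adjusted p alone, 115 lincRNA genes were lower (27.0%) and 18 higher (4.23%), where all genes tested gave 20.2% and 11.2%. In 168 lincRNA genes (39.4%) every Trf2-/- mouse lay below every WT mouse and in 60 (14.1%) above, where all genes tested gave 26.8% and 22.3%. The median log2 fold change of the 426 genes was -0.15, with quartiles at -0.53 and 0.11, against a median of 0.04 for all genes tested. On the log2 scale 300 of 426 lincRNA genes (70.4%) were within 0.5 of zero, against 13856 of all 16924 genes tested (81.9%) and 11662 of 13492 protein-coding genes with at least 200 counts (86.4%).

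**Figure D1:**
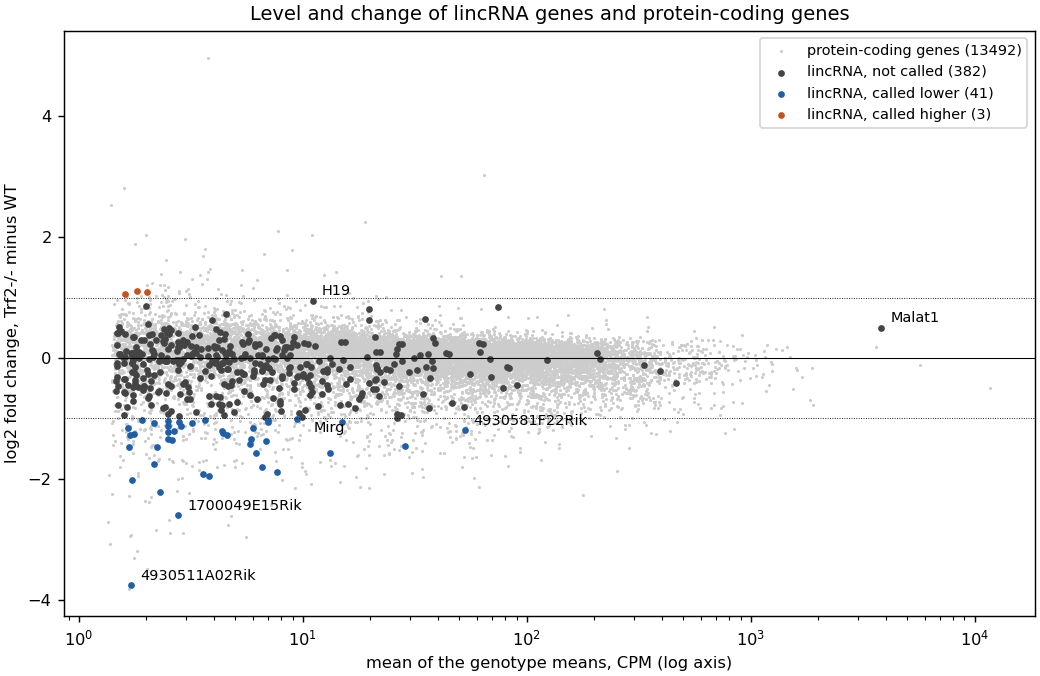
Each point is a gene, with the mean of its genotype means in CPM on a log axis and its log2 fold change, Trf2-/- over WT, on the other axis. Grey points are protein-coding genes with at least 200 counts, dark points the lincRNA genes that were not called, and the dotted lines mark a 2-fold change. The 41 lincRNA genes called lower lie at the low to middle levels and reach -3.76, and the 3 called higher lie at the lowest levels.

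Because the size of a change that can be called depends on the level, the lincRNA genes were set beside protein-coding genes of like level, in 4 bins given by the quartiles of the lincRNA levels. Weighted to the lincRNA levels in this way, 4.73% of protein-coding genes were called lower and 1.004% higher, and on the adjusted p alone 14.7% were lower and 9.41% higher. Their median log2 fold change was 0.09. In the lowest bin, 1.46 to 2.45 CPM, 11 of 107 lincRNA genes were called lower (10.3%) against 8.07% of 731 protein-coding genes. The second bin, 2.46 to 4.50 CPM, held 15 of 106 (14.2%) against 5.14% of 993, and the third, 4.52 to 9.99 CPM, 11 of 106 (10.4%) against 3.71% of 1671. In the top bin, from 10.1 CPM upward, 4 of 107 (3.74%) were called against 2.01% of 10054. The bin medians of the lincRNA genes were -0.11, -0.05, -0.18 and -0.19, and those of the protein-coding genes 0.11, 0.13, 0.12 and 0.02. The share of lincRNA genes called lower was above that of protein-coding genes in all 4 bins, while the median standard errors were alike in the lower 3 (0.22, 0.19 and 0.14 against 0.23, 0.18 and 0.14). In the top bin, which spans a wide range of levels, they were 0.092 for lincRNA genes and 0.068 for protein-coding genes. These shares are descriptions and were not tested across genes.

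**Figure D2:**
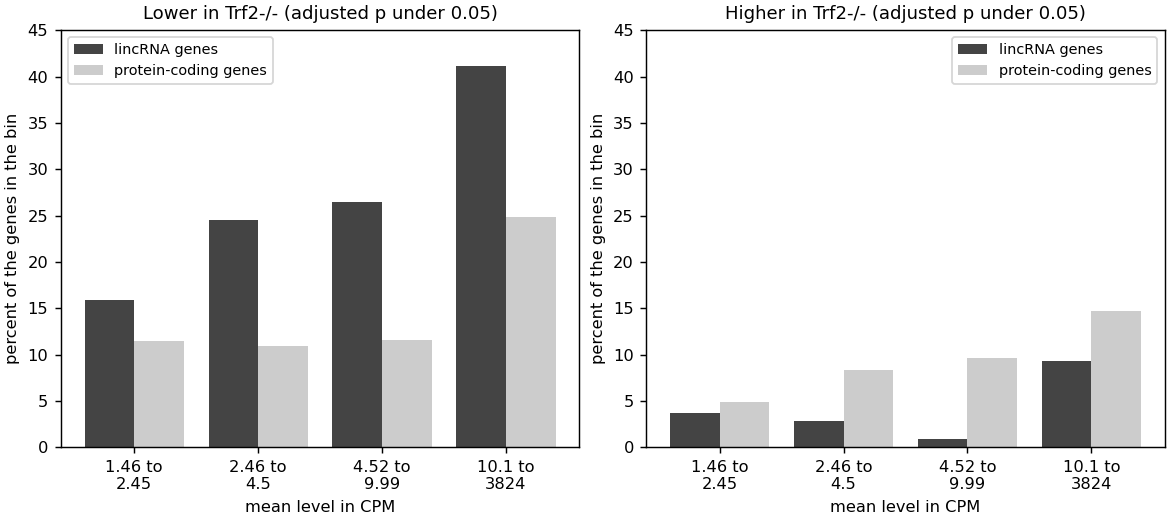
Bars give the percent of lincRNA genes (dark) and of protein-coding genes (light) with an adjusted p under 0.05, lower in Trf2-/- mice at left and higher at right, in 4 bins of mean level in CPM. The dark bar is the taller in each bin at left, from 15.9 against 11.5% in the lowest bin to 41.1 against 24.9% in the top bin, and the shorter in each bin at right.

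The lincRNA gene with the steepest decrease was 4930511A02Rik (ENSMUSG00000087092; chromosome 12, 11445039 to 11451618, plus strand, 4 exons). It held 94, 70 and 77 counts in WT mice and 6, 8 and 1 in Trf2-/- mice. The groups lay far apart, at 3.22 ± 0.51 and 0.215 ± 0.14 CPM (mean ± SD, n = 3), and the log2 fold change was -3.76 ± 0.34 (SE; adjusted p = 0.000322, edgeR's quasi-likelihood test). Its start lies 1584 bases from that of Vsnl1, a neuronal calcium sensor gene, on the opposite strand, and Vsnl1 had too few counts to be tested.

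Next came 1700049E15Rik (ENSMUSG00000085077; chromosome 6, 147638763 to 147650896, plus strand), with 161, 87 and 114 counts against 17, 28 and 6. No protein-coding gene lay within 10 kb of it, and its log2 fold change was -2.61 ± 0.35 (adjusted p = 0.000994, edgeR). 4931440J10Rik (chromosome 14, 63379338 to 63448963, plus strand) lies antisense to Ints6, a subunit of the Integrator complex, and held 133, 87 and 73 counts against 28, 21 and 5. Its log2 fold change was -2.22 ± 0.32 (adjusted p = 0.00131), while Ints6, at 407 and 438 CPM in WT and Trf2-/- mice, gave 0.10 ± 0.044 (adjusted p = 0.104). Gm16677 (chromosome 14, 69946056 to 69955139, minus strand), the last of 4 genes that fell more than 4-fold, held 86, 58 and 66 counts against 16, 19 and 9 (log2 fold change -2.02 ± 0.24, adjusted p = 0.000679).

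On chromosome 4, Gm13001 (136673058 to 136674058) and 1700037C06Rik (136672624 to 136673497) overlap on the minus strand, so the counting could split or drop reads that they share and their values are not independent. Gm13001 held 167, 160 and 134 counts against 49, 53 and 3, and 1700037C06Rik held 324, 331 and 265 against 89, 104 and 24. Both sets of mutant values lay below the WT values, with Trf2-/- mouse 3 far below the other mutant mice, and the log2 fold changes were -1.96 ± 0.43 (adjusted p = 0.00901) and -1.90 ± 0.27 (adjusted p = 0.00119, edgeR). 4930483J18Rik (chromosome 15, 81021204 to 81023193, plus strand) held 173, 138 and 122 counts against 40, 51 and 9 (log2 fold change -1.91 ± 0.31, adjusted p = 0.00214).

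The other genes among the 15 with the largest decreases were Prss56 (log2 fold change -1.80), Gm12763 (-1.76), D6Ertd474e (-1.58), Gm15908 (-1.58), 1700112K13Rik (-1.48), Gm2788 (-1.47), 1700030C12Rik (-1.46) and Gm15612 (-1.43), and the remaining 26 called genes ran down to -1.02 for Gm11193. A pair of the genes called lower stood out by level. 1700030C12Rik held 1265, 1093 and 839 counts in WT mice against 406, 442 and 162, and 4930581F22Rik 2599, 1770 and 1299 against 859, 877 and 378, the highest level of all genes called lower at 73.6 ± 14.98 CPM in WT mice. In all 41 genes every Trf2-/- mouse lay below every WT mouse, where all genes tested gave 26.8%. The calls were made on these same mice and favour such genes, so this adds no separate support. Trf2-/- mouse 3 was the lowest of the mutant mice in 35 of the 41, as it was in 355 of 383 protein-coding genes called lower. It was the lowest in 204 of all 426 lincRNA genes and in 5001 of 13494 protein-coding genes with at least 200 counts. Relative to the mean of the WT mice, the 41 genes had median log2 ratios of -1.17, -1.04 and -1.83 in Trf2-/- mice 1, 2 and 3, and over all 426 genes the medians were -0.14, -0.16 and -0.18. Among the mutant mice, mouse 3 also had the lowest library total. Its marker sums were the lowest for round and elongating spermatids, pachytene spermatocytes, Leydig cells and macrophages. For spermatogonia and Sertoli cells they were the highest. The part of any of these in its lower values was not tested. When mouse 3 was left out, 14 of the 41 calls were lost, against 1 to 4 for any other mouse. In each of the 6 fits that left out 1 mouse, 25 of the 41 were called. The 14 were 4930448E22Rik, 1700018A04Rik, 4932412D23Rik, 4930556L07Rik, Speer7-ps1, Gm10532, 1110018N20Rik, Gm16738, 4933431K23Rik, A930013B10Rik, Gm11193, 1700046C09Rik, 1700001G01Rik and Gm13605, with log2 fold changes of -1.28 to -1.02 when all 6 mice were fitted. Without mouse 3 these were -0.995 to -0.80, each still with an adjusted p under 0.05.

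**Figure D3:**
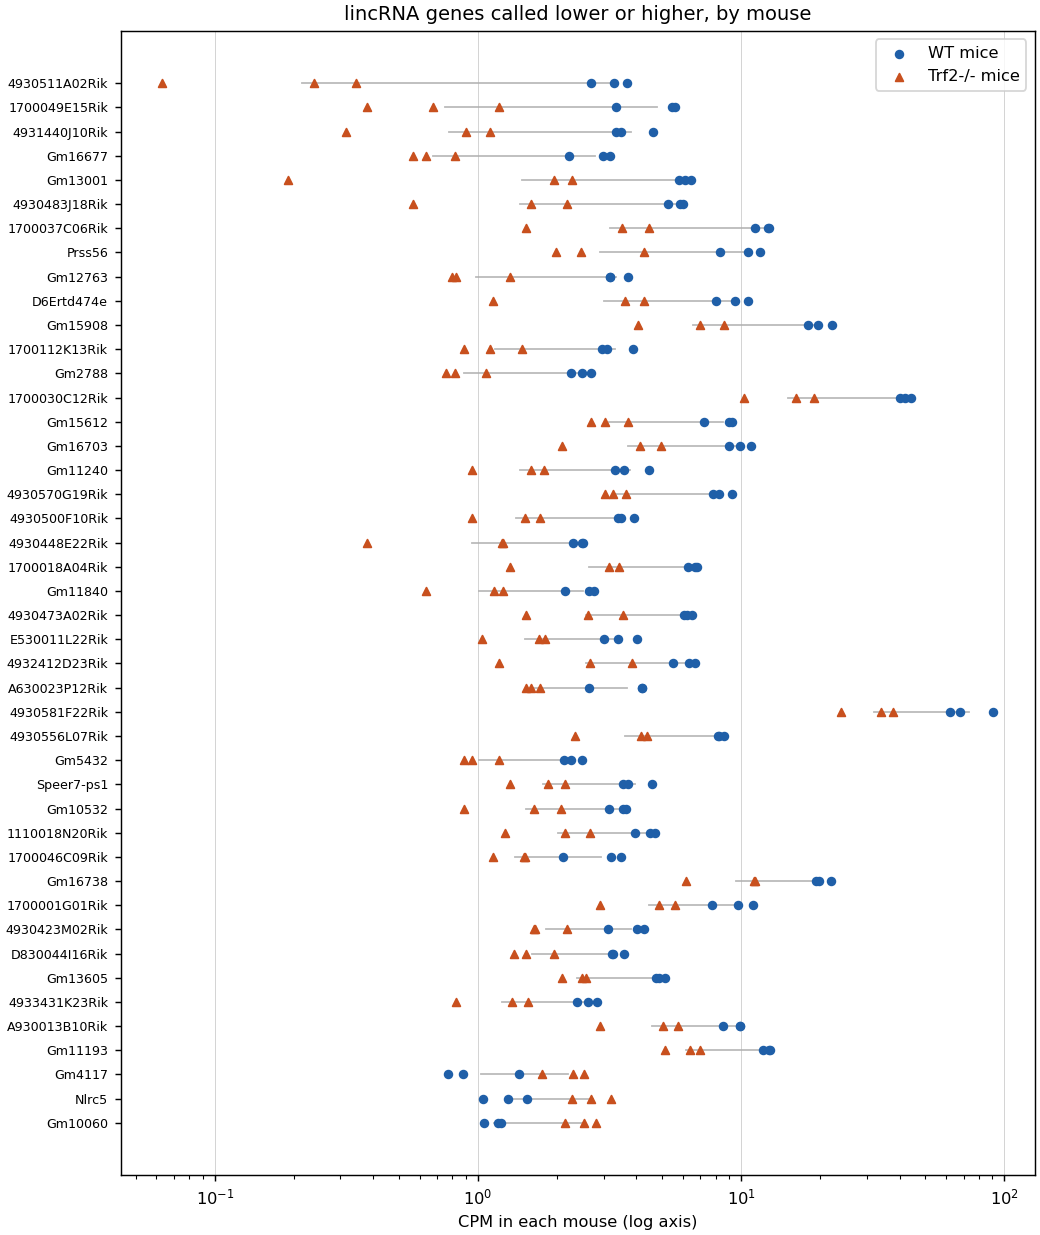
CPM of each of the 44 called lincRNA genes in each mouse on a log axis, WT mice as circles and Trf2-/- mice as triangles, with a line between the genotype means. The triangles lie to the left of the circles in the upper 41 genes and to the right in the lower 3, and for Gm13001 the triangle of Trf2-/- mouse 3, with 3 counts, lies far from the others.

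Only 3 lincRNA genes were called higher, all of them with few counts. Gm10060 held 35, 31 and 22 counts in WT mice and 71, 50 and 40 in Trf2-/- mice (log2 fold change 1.10 ± 0.19, adjusted p = 0.00315, edgeR). Nlrc5 held 30, 40 and 27 against 68, 75 and 36 (1.09 ± 0.22, adjusted p = 0.00576), and Gm4117, which lies antisense within Vcan, 41, 23 and 16 against 58, 41 and 40 (1.06 ± 0.27, adjusted p = 0.0182). The CPM of the genotypes did not overlap for any of the 3, which the call on the same mice favours. Over all genes tested, every Trf2-/- mouse lay above every WT mouse in 22.3%. Their changes lay just past the 2-fold limit, and none of the 3 was called in each of the 6 fits that left out 1 mouse. Nlrc5 is protein-coding in RefSeq, and Gm10060 is listed there as a pseudogene.

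Windows of 300 bases around the annotated starts, from 250 bases before to 50 after, were read from the NCBIM37 genome for 4 of the genes that fell, since Trf2 acts at promoters. They are written 5′ to 3′ on the strand of the gene, with matches to 4 short motifs on either strand in capitals. The first motif is the box that binds the TATA-binding protein, read as TATAAA. The cyclic AMP response element, at which the spermatid activator CREM binds, was read in full as TGACGTCA. Its core, which also lies within the full element and occurs alone far more often, was read as TGACG. The GC box, bound by Sp family factors, was read as GGGCGG. The windows are chr12:11444789-11445088 (plus strand) for 4930511A02Rik, with 1 GC box on the minus strand, and chr6:147638513-147638812 (plus strand) for 1700049E15Rik, in which the TATA box and its reverse complement overlap 114 and 116 bases before the start. Those of chr14:69955090-69955389 (minus strand) for Gm16677, with 3 GC boxes and 2 core elements, and chr15:81020954-81021253 (plus strand) for 4930483J18Rik, with none of the motifs, also take in the start of a protein-coding gene on the other strand, Entpd4 at 69 and Mkl1 at 17 bases away.
4930511A02Rik: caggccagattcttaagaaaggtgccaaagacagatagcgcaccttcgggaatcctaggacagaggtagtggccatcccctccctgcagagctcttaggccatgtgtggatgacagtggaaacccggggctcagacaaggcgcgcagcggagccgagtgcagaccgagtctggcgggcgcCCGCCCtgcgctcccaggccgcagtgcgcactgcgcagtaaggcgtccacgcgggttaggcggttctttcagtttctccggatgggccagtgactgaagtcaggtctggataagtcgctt
1700049E15Rik: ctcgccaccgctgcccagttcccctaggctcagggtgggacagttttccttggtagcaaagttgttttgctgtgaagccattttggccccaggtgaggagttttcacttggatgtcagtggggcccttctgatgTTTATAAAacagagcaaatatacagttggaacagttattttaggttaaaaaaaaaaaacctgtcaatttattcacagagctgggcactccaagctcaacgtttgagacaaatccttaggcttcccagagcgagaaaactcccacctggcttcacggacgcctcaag
Gm16677: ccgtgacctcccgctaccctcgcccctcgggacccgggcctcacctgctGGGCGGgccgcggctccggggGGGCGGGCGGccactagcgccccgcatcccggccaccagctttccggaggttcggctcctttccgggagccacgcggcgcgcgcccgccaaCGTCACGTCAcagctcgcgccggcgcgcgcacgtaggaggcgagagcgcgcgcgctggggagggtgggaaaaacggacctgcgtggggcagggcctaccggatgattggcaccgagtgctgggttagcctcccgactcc
4930483J18Rik: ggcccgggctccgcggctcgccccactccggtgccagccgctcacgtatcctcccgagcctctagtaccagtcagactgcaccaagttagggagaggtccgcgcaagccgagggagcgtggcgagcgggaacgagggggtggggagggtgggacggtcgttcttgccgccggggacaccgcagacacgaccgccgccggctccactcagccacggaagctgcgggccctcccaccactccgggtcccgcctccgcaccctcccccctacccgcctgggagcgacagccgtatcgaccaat

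Of the 422 lincRNA genes with such a window, 8.29% held the TATA box, 4.50% the full response element, 31.3% its core and 55.9% the GC box. The shares among 26200 windows of all genes were 12.1, 2.11, 22.8 and 40.5%, and among 13262 windows of protein-coding genes with at least 200 counts 7.60, 3.14, 30.0 and 60.0%. The 41 genes called lower held the TATA box in 6 windows (14.6%), the full element in 0, the core in 7 (17.1%) and the GC box in 20 (48.8%). The median ratio of observed to expected CpG was 0.76 in lincRNA windows, 0.66 in those of genes called lower and 0.73 in those of expressed protein-coding genes. Head-to-head lincRNA genes stood highest, at 0.90 with the GC box in 78.6% of windows, and those more than 10 kb from a protein-coding gene had 0.48 and 38.9%.

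The protein-coding genes beside the lincRNA genes had medians near zero. The 112 lincRNA genes with a head-to-head partner within 1 kb had a median of -0.20 on the log2 scale and 10 calls of lower, and their partners 0.02 and 1 call. For 146 genes that overlap a tested protein-coding gene on the opposite strand the median was -0.18 with 13 calls of lower, against 0.00 and 3 calls among 145 partners. Across these pairs Spearman's rho between the changes of the gene and its partner was 0.04 and 0.06, a description over pairs from the same 6 libraries. Both members of a pair were lower past the adjusted p in 10 of 112 head-to-head pairs and in 11 of 146 antisense pairs. In the head-to-head pairs 35 lincRNA genes and 27 partners were lower past the adjusted p, and in the antisense pairs 41 and 38. Over all genes tested, 20.2% were lower past the adjusted p. LincRNA genes more than 10 kb from any protein-coding gene gave a median of -0.19, with 11 of 90 called lower and 1 higher. Calls, which also need a 2-fold change, were made for 4.3% (lower) and 0.609% (higher) of all genes tested. Medians were above zero for the genes in other arrangements within 10 kb (0.06, 6 of 53 called lower), for those overlapping on the same strand (0.10, 0 of 14 called by edgeR or by DESeq2 and 6 of 14 with an unadjusted p under 0.05 in edgeR) and for the 4 genes without a strand (0.11).

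**Figure D4:**
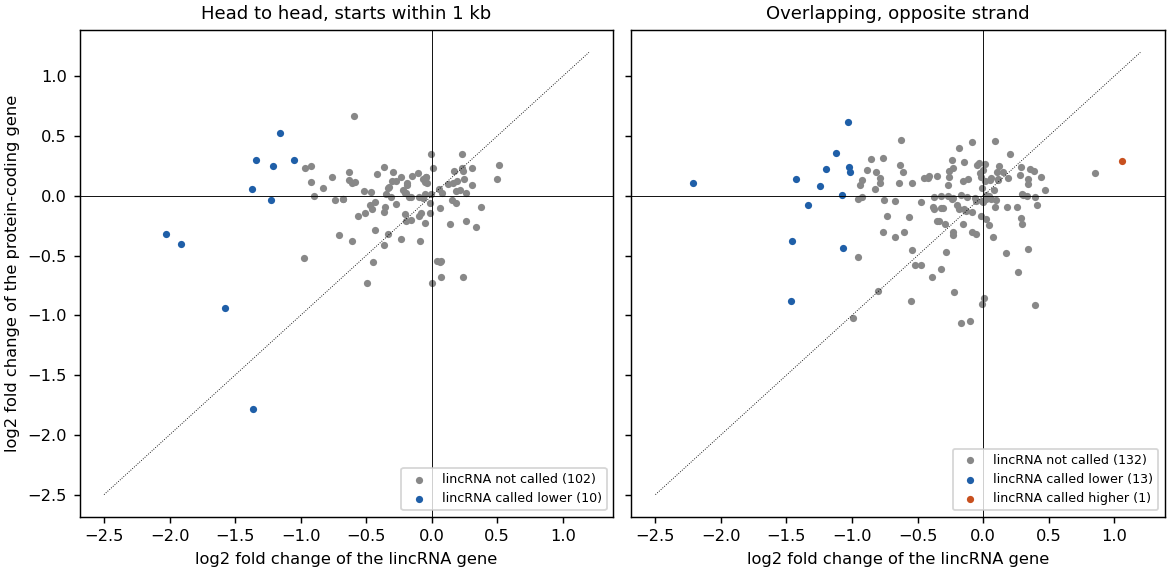
Log2 fold change of each lincRNA gene (horizontal axis) and of its protein-coding partner (vertical axis), for head-to-head pairs at left and antisense overlaps at right, with the diagonal dotted. Most of the 10 and 13 lincRNA genes called lower have partners near zero, and 1 partner, Rasef at -1.78, was itself called lower.

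Of the 41 lincRNA genes called lower, 30 lay within 10 kb of a protein-coding gene, and 26 of those neighbours could be tested. The lowest change of a neighbour was -1.78, the median 0.08 and the highest 0.62. Rasef, a Rab family GTPase gene whose start is 537 bases from that of Gm11240, fell with it (-1.78 ± 0.22, adjusted p = 0.000761, against -1.36 ± 0.23, adjusted p = 0.00285, edgeR). Past the adjusted p alone 7 of the 26 neighbours were lower and 4 higher, near the shares of 20.2% and 11.2% over all genes tested. The partners of Gm15908 (1300014I06Rik, -0.94 against -1.58) and Gm2788 (E2f8, an E2F family repressor, -0.88 against -1.47) were lower, though by less. Entpd4, a nucleotidase gene, and Mkl1, a coactivator of serum response factor, were lower at -0.32 ± 0.050 and -0.41 ± 0.063 (adjusted p = 0.00182 and 0.00184), while Gm16677 and 4930483J18Rik at the other side of the windows printed above fell by 2.02 and 1.91 on the log2 scale. In other pairs the partner rose: Trib2, a pseudokinase gene 126 bases from Gm5432, gave 0.52 against -1.16, Cdipt, which makes phosphatidylinositol, 0.30 against -1.05 for D830044I16Rik, Ednra, an endothelin receptor gene, 0.62 against -1.03 for 4933431K23Rik, and Dgke, a diacylglycerol kinase gene, 0.24 against -1.02 for A930013B10Rik, with adjusted p values of 0.0290, 0.0214, 0.00597 and 0.0432 for these partners (edgeR). Negr1, 48 bases from 4930570G19Rik, gave 0.30 against -1.34, with an adjusted p of 0.166.

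The lincRNA genes were also grouped by the kind of name they carry, which for RIKEN genes records the library of the clone. The 105 genes named after RIKEN clones from testis libraries (such as 1700029M20Rik or 4930511A02Rik) had a median of -0.45 on the log2 scale, with 19 called lower (18.1%) and 54 lower past the adjusted p (51.4%). The 132 other RIKEN genes had a median of -0.01 and 5 called lower (3.79%), the 151 predicted Gm genes -0.17 and 14 (9.27%), and the 38 genes with other names 0.12 and 3 (7.89%). Protein-coding genes with at least 200 counts fell into a like order. Those named after testis clones numbered 266, with a median of -0.49 and 19.2% called lower, the Gm genes gave -0.17 and 12.4%, the other RIKEN genes 0.00 and 1.31%, and the 12498 with other names 0.05 and 2.41%. Set side by side by name, the median of lincRNA genes minus that of protein-coding genes was 0.04 for testis clones, -0.01 for Gm genes, -0.01 for other RIKEN genes and 0.07 for other names, whereas without regard to name they were -0.15 and 0.04. These name groups were not matched by level. In the same order, median levels were 6.22, 3.88, 4.10 and 10.4 CPM for lincRNA genes. For protein-coding genes they were 24.85, 5.88, 20.4 and 33.5 CPM. Testis clone names made up 24.6% of the lincRNA genes and 1.97% of the protein-coding genes.

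**Figure D5:**
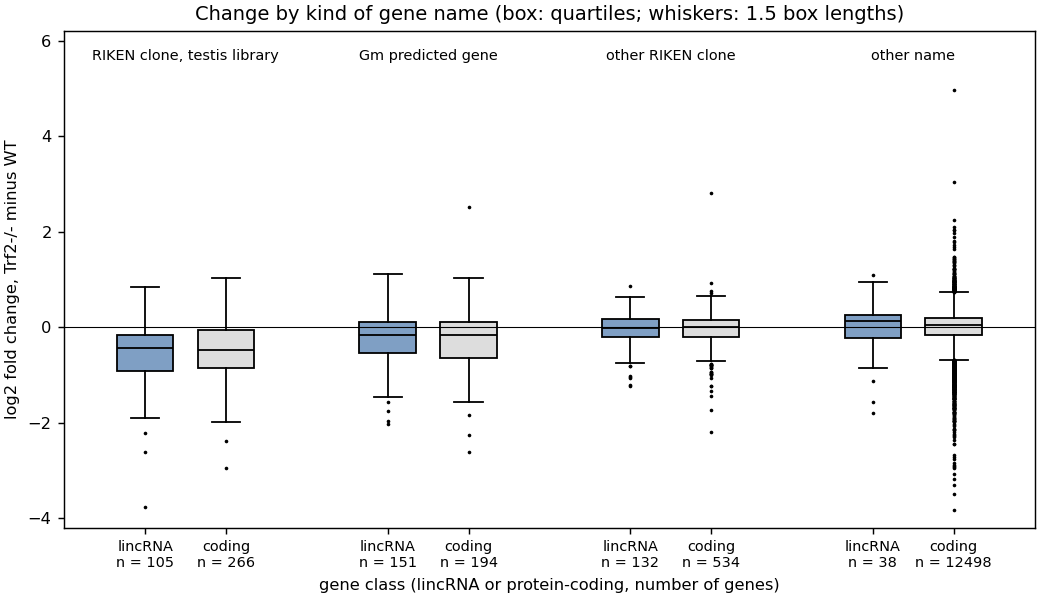
Log2 fold changes, Trf2-/- over WT, by kind of gene name, for lincRNA genes (blue) and protein-coding genes with at least 200 counts (grey), with the number of genes under each box. Boxes span the quartiles with the median as a line, whiskers reach 1.5 box lengths and points lie beyond. The boxes for testis clones sit lowest in both classes, at medians of -0.45 and -0.49.

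Of the lincRNA genes with a known role, more were higher than lower past the adjusted p. From a list of 41 such genes, 24 are in the table, 16 have the biotype lincRNA and 14 are among the genes described here. The other 2 of the 16 missed the limit of 200 counts. Miat was lower, at -1.37 (adjusted p = 0.00540, edgeR), and Snhg4 gave -0.54 (adjusted p = 0.122). On the adjusted p, 8 of the 14 were higher, 1 was lower and 5 did not pass, and the median of the 14 was 0.25 on the log2 scale. The shares higher and lower were 11.2% and 20.2% of all genes tested, and 4.23% and 27.0% of the 426 lincRNA genes. At 2-fold 0 were called by edgeR or by DESeq2, though the unadjusted p of edgeR was under 0.05 for 11. H19, the imprinted RNA made from the maternal copy next to Igf2, measured 7.00, 7.35 and 8.35 CPM in WT mice and 14.7, 11.7 and 17.6 CPM in Trf2-/- mice. Its change was the largest among the 14, at 0.95 ± 0.15 with no overlap of the genotypes (adjusted p = 0.00218, edgeR). Such an order, every Trf2-/- mouse above every WT mouse, held for 22.3% of all genes tested. Snhg5, host of small nucleolar RNAs, gave 29.5, 27.4 and 24.95 CPM against 42.4, 41.2 and 44.9 CPM (0.65 ± 0.074, adjusted p = 0.000577). Smaller rises were found for Dleu2 and Mir17hg, both hosts of microRNAs, and for Snhg1, at 0.25, 0.24 and 0.24 (adjusted p = 0.0103, 0.0120 and 0.0245). Each of the latter 3 missed the adjusted p when some single mouse was left out, Dleu2 at 0.0508, Mir17hg at 0.0564 and Snhg1 at up to 0.0940. With scaling by library size alone, or without Trf2-/- mouse 2 or WT mouse 3, H19 was past 2-fold, at 1.04, 1.08 and 1.02, and without Trf2-/- mouse 2 so was Mirg in the other direction, at -1.09.

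Meg3, Rian and Mirg lie in a row on the plus strand of chromosome 12, in the imprinted Dlk1-Dio3 domain, where the maternal copy is read as a series of noncoding RNAs. Meg3 (110779211 to 110809936) measured 12.7, 14.5 and 16.02 CPM in WT mice and 27.2, 21.5 and 27.0 CPM in Trf2-/- mice, a log2 fold change of 0.81 ± 0.12 (adjusted p = 0.00143, edgeR). Rian (110842155 to 110899919), host of small nucleolar RNAs, gave 13.4, 14.8 and 18.8 CPM against 30.2, 18.3 and 23.4 CPM, with an overlap between the groups (0.62 ± 0.19, adjusted p = 0.0319). Rian did not pass without Trf2-/- mouse 1, WT mouse 1 or WT mouse 2 (adjusted p = 0.104, 0.122 and 0.107), whereas Meg3 and Mirg passed in each such fit. Mirg (110973191 to 110987665), host of a microRNA cluster, went the other way, with 13.1, 13.2 and 13.3 CPM in WT mice and 7.42, 9.26 and 4.80 CPM in Trf2-/- mice (-0.86 ± 0.19, adjusted p = 0.00905). The 3 genes were thus at like CPM in WT mice. In each mutant mouse Mirg lay below both Meg3 and Rian, whose ranges overlapped. This difference between the genes was not tested.

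The most abundant lincRNA genes that did not pass the adjusted p bound the change well. For Tug1, whose locus is needed for male fertility, the WT mice had 229, 207 and 202 CPM and the Trf2-/- mice 218, 200.3 and 214 CPM, with a log2 fold change of -0.01 and a 95% interval from -0.15 to 0.12. The intervals were -0.25 to 0.00 for Tdrd5, -0.14 to 0.29 for Gm10505, -0.20 to 0.11 for 1700020I14Rik and -0.31 to -0.03 for 4933404O12Rik. A 2-fold change lies outside each of these 5 intervals. The other known RNAs that did not pass were Pvt1 (-0.21), Rmst (0.47), Snhg7 (0.26) and Snhg12 (0.22). With scaling by library size alone Rmst, Snhg7 and Snhg12 passed, at adjusted p values of 0.0436, 0.0205 and 0.0363.

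On the X chromosome, which is silenced in pachytene spermatocytes, 11 lincRNA genes were measured, and 9 of them were above zero. Their median was 0.18, with 0 past the adjusted p in edgeR's quasi-likelihood test or in DESeq2's Wald test and 4 at an unadjusted p under 0.05 in edgeR. For 487 X-linked protein-coding genes the median was 0.21, with 134 higher (27.5%) and 2 lower (0.411%) past the adjusted p. The 13005 autosomal protein-coding genes had a median of 0.03, with 12.5% higher and 22.25% lower. Among all genes tested these shares were 11.2% and 20.2%, and 45.1% of the changes were below zero. The 415 lincRNA genes on other chromosomes had a median of -0.16, and 41 of them were called lower (9.88%). With 9.62% of all 426 lincRNA genes called lower, 11 genes are too few for 0 calls to set the X chromosome apart.

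At the limit of 200 counts genes of both directions were found on each side. Just inside lay A930024E05Rik (202 counts, log2 fold change -0.54), 4833417C18Rik (205, 0.52) and A230107N01Rik (205, 0.07), and just outside Gm15398 (199, -0.40), Gm13986 (198, -0.34) and Gm17435 (197, 0.44). Had every mouse been at the level of the lower genotype, 39 of the 426 genes would have missed the limit, 29 of them higher in WT mice, among which 13 were called lower, and all 3 genes called higher would have missed it. Had every mouse been at the level of the higher genotype, 30 of the 1205 lincRNA genes left out would have reached it, 20 of them higher in WT mice.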

How the data were processed

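Total RNA from whole testes was depleted of ribosomal RNA and sequenced from stranded libraries as single-end reads of 50 bases, 1 library for each of 3 WT and 3 Trf2-/- mice. Per the submitters' processing notes, CASAVA 1.8.2, TopHat2 2.0.10, Bowtie2 2.1.0, HTSeq 0.5.4p3 and DESeq2 1.0.19 were used with the mm9 genome; the annotation release and the strand setting of the counting are not given in the sources used here. The deposited values used were raw counts per gene, which the authors had not normalized. The table's 12 further per-sample columns of normalized values were not used, and neither were the authors' columns of fold changes and p-values.

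Counts were fitted in R 4.3.3 with edgeR 4.0.16 (TMM factors, filterByExpr, quasi-likelihood test, genotype as the only term) over all 26743 genes, of which 16924 passed the filter, all 426 lincRNA genes among them. Adjusted p values are Benjamini-Hochberg over the 16924, and a call needed an adjusted p under 0.05 and a 2-fold change. Levels are CPM on TMM-scaled totals. The level bins took protein-coding genes with at least 200 counts, weighted by the lincRNA genes in each bin. With 3 mice against 3, an exact permutation test of 1 gene cannot go below p = 0.1, so none is given. Strands and neighbours came from GENCODE M1, and windows from the NCBIM37 genome. DESeq2 1.42.0, other scalings, filters and limits, a replicate block and leaving out each mouse were the alternatives. On data simulated from these libraries, 94.5% of 199 changed genes were recovered among 16748, with 5 false calls. Recovery was not tested separately for lincRNA genes, for genes of low level or for changes near the 2-fold limit. Replicates of a genotype differed by more than counting noise in every pair.

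The genes, the lists and the tests were chosen with earlier results of these data known. Genes named are the 10 highest per kilobase, the 15 largest decreases and all increases called, the known RNAs measured, those nearest the limit of 200 counts, called genes within 10 kb of a protein-coding gene, the 5 with most counts that did not pass, and calls that a single mouse decided.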

Additional observations from a re-analysis of the deposited data

How the results depend on the processing

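The medians of lincRNA genes and of protein-coding genes of like level kept their signs under the alternatives run, and DESeq2's Wald test called all 41 genes that edgeR called lower. Scaling by library size alone moved the median of all genes from 0.04 to 0.13 on the log2 scale. Under it 42 lincRNA genes were higher past the adjusted p, the lincRNA median was -0.057 and that of protein-coding genes of like level 0.19, while Tug1 and 1700020I14Rik turned to 0.083 and 0.054. At an adjusted p under 0.01, 7 lincRNA genes were higher. With the limit at 500 counts, 20 were called lower and 0 higher by edgeR at the lincRNA median of -0.18, and 3.42% of protein-coding genes of like level were called. Without genes that overlap, or lie within 1 kb of, a protein-coding gene, 137 remained, of which 17 were called lower and 34 were lower past the adjusted p, with a median of -0.0798. Restricted to the 353 genes of GENCODE type lincRNA, chosen after seeing the data, 25 were called lower (7.08%), at a median of -0.13. Of the 69 processed transcripts 16 were called lower (23.2%), at a median of -0.38. The share called lower among all 426 genes thus rests in part on the processed transcripts. Protein-coding genes of like level to the 426 gave 4.73%. Each of these restrictions leaves fewer genes. Leaving out the genes that RefSeq lists as protein-coding, and 10 level bins in place of 4, both added after seeing the data, moved no count by over 1.5 times.

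Leaving out 1 mouse at a time gave 28 to 58 genes called lower and 1 to 4 higher, 90 to 118 lower and 11 to 21 higher past the adjusted p, lincRNA medians of -0.18 to -0.11, medians of protein-coding genes of like level of 0.058 to 0.0995, 7.04 to 14.6% of lincRNA genes called and 4.87 to 6.78% of those protein-coding genes. Without Trf2-/- mouse 3, 7.04% of lincRNA genes and 5.40% of protein-coding genes of like level were called. With all 6 mice these shares were 10.3% and 5.74%, so their gap was smaller without that mouse. The count called higher was 1 without Trf2-/- mouse 1, and the 18 higher past the adjusted p were 11 without it. Genes near zero changed sign in these fits. Gm10505 ran from -0.00800 without Trf2-/- mouse 1 to 0.19, Tug1 from -0.053 to 0.042 without WT mouse 1, 1700020I14Rik from -0.089 to 0.00542 without WT mouse 1, and A230107N01Rik from -0.13 without Trf2-/- mouse 3 to 0.23. The cause was not tested.

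Mice of the 2 genotypes with the same replicate number did not deviate together (correlations of -0.10 to -0.03, 0 of 3 best with their own number), so the numbers were not taken as pairs. With the replicate block 42 genes were called lower, 41 of them the same, and 3 higher, and no named gene changed its call. Depth limits the genes of the lowest level bin, where the median standard error of the log2 fold change was 0.22, against 0.092 in the top bin.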
